A study of Homo sapiens with 9 samples.

Results

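The transcriptome of an apatinib-resistant line, labelled MPTN, was compared with that of its untreated parent, labelled WT, over every gene in the count table. Both are HSC-3 cells, an established human line of oral squamous cell carcinoma. The comparison holds 6 of the 9 libraries of the series, 3 for each group, and the test covered 16990 of its 60612 annotated genes, those with sufficient counts. The resistant line was grown with apatinib until it tolerated the drug, and the last 3 libraries, labelled MPTN24, come from HSC-3 exposed to apatinib for 24 h. The labels do not spell out either name, so MPTN24, for its number, was read as the 24 h exposure and MPTN as the resistant cells. The labels give no dose, no selection time and no statement that the drug was in the medium when MPTN was harvested. They also do not say whether the resistant line is 1 clone or whether the replicates were separate cultures, so each p-value measures only the spread between these libraries, which may be technical.

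Apatinib blocks the kinase of the vascular endothelial growth factor receptor KDR and, less strongly, those of KIT and RET. Type I and type III interferons are secreted proteins that epithelial cells make when sensors find viral or misplaced nucleic acid. They signal through JAK kinases to transcription factors such as STAT2 and IRF9, which bind a repeated GAAA element and switch on antiviral genes, chemokines and the machinery of antigen presentation. Proliferating carcinoma cells also carry large amounts of the messengers for DNA replication and mitosis, which the CDK inhibitor CDKN1A holds back.

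The comparison asks how the resistant state differs from the parental one. Relative to WT, 3116 genes rose in MPTN, or 18.3% of those tested, and 3071 fell, or 18.1% (edgeR's quasi-likelihood test, Benjamini-Hochberg adjusted p under 0.05). The rises were the larger ones, with 1040 of them at an estimated change of 2-fold or more against 409 of the falls. Genes called with the same sign in all 6 fits that left out 1 WT or MPTN library numbered 2072 higher (12.2%) and 2086 lower (12.3%). The median log2 change over all tested genes was 0.021. Groups without overlap were common: every MPTN library lay above every WT library in 24.8% of tested genes and below in 22.6%.

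**Figure D1:**
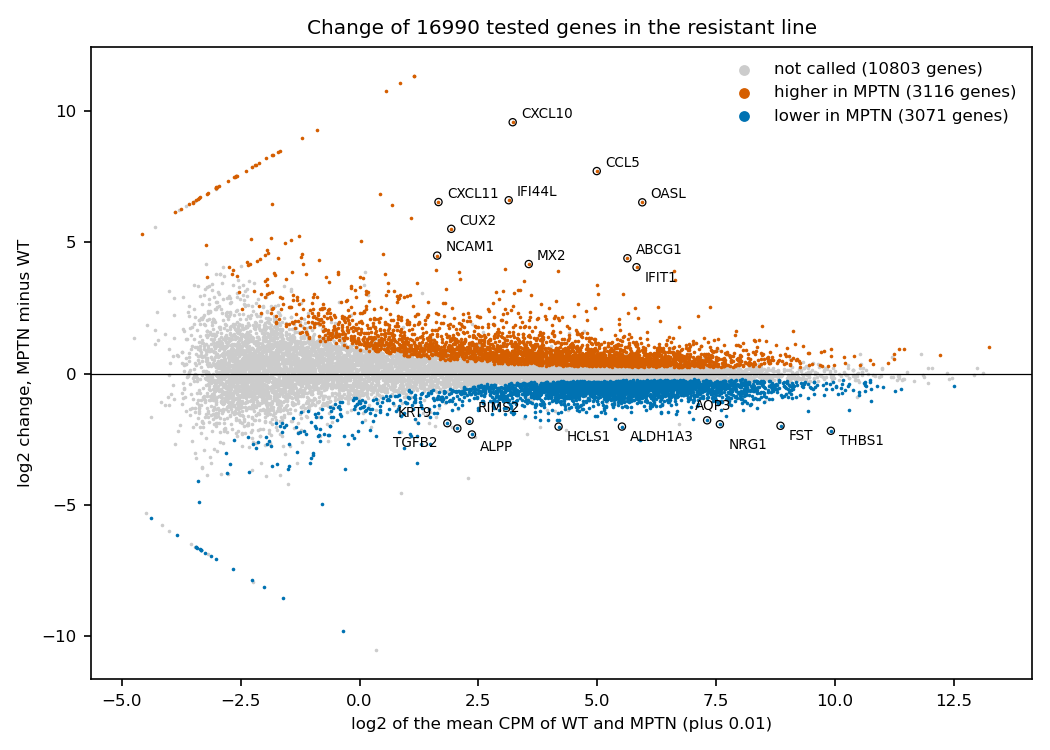
Log2 change of MPTN minus WT (vertical) against log2 of the mean CPM of the WT and MPTN libraries (horizontal) for each of 16990 tested genes; orange points are the 3116 called higher, blue points the 3071 called lower, and circles mark the 10 largest rises and 10 largest falls at 5 CPM or more that held in every leave-one-out fit. The circled rises reach a log2 change of 9.57, for CXCL10, while the circled falls end at -2.32, for ALPP; the lines of points at the far left are genes with no count in 1 of the groups.

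The control regions of interferon-stimulated genes are shown first, because these genes gave the largest rises. The promoters are RefSeq sequences on GRCh38.p14, from 250 bases before to 50 after a transcription start, written 5′ to 3′ in the direction of transcription. Capitals mark GAAA, 2 bases of any kind and another GAAA, or the reverse complement of that pattern. It is the core of the element bound by interferon-activated factors, and matches may overlap. The CXCL10 promoter (chr4:76023448-76023747, minus strand) holds 1 match, 221 bases before the start, and the IFI44L promoter (chr1:78620198-78620497, plus strand) holds 2 in repeated stretches. RSAD2 (chr2:6877527-6877826, plus strand) has 1 match, IFIT1 (chr10:89392373-89392672, plus strand) has 2, and the interferon gene IFNL1 (chr19:39296157-39296456, plus strand) has 2 that overlap. These genes were picked by name. RSAD2 had 2 promoters to choose from, and a promoter with a match was taken for printing.
CXCL10: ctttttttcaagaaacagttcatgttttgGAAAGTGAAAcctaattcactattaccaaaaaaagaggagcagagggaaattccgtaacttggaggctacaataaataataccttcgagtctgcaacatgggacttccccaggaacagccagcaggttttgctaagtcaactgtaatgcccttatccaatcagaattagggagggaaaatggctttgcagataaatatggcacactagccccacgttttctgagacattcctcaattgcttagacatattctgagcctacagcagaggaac
IFI44L: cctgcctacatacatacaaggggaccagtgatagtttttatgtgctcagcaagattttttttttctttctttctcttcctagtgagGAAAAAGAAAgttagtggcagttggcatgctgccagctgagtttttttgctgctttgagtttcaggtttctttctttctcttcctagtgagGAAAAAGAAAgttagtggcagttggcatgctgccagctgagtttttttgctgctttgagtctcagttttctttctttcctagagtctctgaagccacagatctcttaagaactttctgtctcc
RSAD2: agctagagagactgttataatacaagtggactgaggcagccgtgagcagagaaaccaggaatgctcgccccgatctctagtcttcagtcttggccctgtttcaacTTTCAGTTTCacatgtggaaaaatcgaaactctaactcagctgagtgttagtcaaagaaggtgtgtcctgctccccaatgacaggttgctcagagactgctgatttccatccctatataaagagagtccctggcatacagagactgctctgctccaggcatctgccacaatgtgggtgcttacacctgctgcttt
IFIT1: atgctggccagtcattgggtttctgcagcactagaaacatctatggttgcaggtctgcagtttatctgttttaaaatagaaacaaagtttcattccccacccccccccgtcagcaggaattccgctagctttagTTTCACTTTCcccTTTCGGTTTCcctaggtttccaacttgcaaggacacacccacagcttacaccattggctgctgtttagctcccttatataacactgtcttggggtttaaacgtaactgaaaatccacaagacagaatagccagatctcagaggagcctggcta
IFNL1: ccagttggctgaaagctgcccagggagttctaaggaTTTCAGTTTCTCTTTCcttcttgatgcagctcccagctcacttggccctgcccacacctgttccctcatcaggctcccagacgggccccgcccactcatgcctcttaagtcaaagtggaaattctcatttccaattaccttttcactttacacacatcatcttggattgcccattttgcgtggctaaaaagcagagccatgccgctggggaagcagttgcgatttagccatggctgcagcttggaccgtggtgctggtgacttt

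Over all 27305 genes with a promoter in the same table, 4.38% held this motif in the window on either strand. Promoters were found for 49 of the 65 interferon-stimulated genes listed, and 35 of them (71.4%) held it. The motif was in 27 of the 38 that rose (71.1%) and in 8 of the 11 that did not (72.7%), so the share was about the same in members with and without a rise. It was in 0 of the 33 mitosis genes and 0 of the 35 DNA replication genes with a promoter in the table. A match describes the letters only and is no proof of binding.

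Interferon messengers themselves were detected in the resistant line and were at or near the floor in the parental one. IFNL1 (ENSG00000182393, chr19:39296407-39298673), a type III interferon, had 0 CPM in each WT library and 3.22, 5.08 and 4.97 CPM in MPTN. All MPTN libraries were therefore above all WT libraries, and IFNL1 was also at 0 in all MPTN24 libraries. Against a floor of 3 read pairs over the WT group, IFNL1 was at least 82.4-fold higher in MPTN (edgeR adjusted p = 1.7e-06). IFNL2 and IFNL3 had 0 WT counts too and were at least 54.1-fold and 66.4-fold higher, but they are nearly identical copies, so how their reads were split between them is uncertain. IFNB1 (ENSG00000171855, chr9:21077104-21077942), the fibroblast interferon, was at 0, 0 and 0.0568 CPM in WT and at 1.76, 2.23 and 3.99 CPM in MPTN. The WT signal amounted to about 1 read pair, and the ratio of 123 had a 95% counting interval of 27.1 to 6080.

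Apart from ZBP1, the receptors, adaptors and sensors named here changed less than the ligands. Of 24 tested interferons, receptors, adaptors and nucleic acid sensors, 12 rose (50%) and 1 fell (4.17%), against 18.3% and 18.1% of all genes. Their median log2 change was 0.38 (0.00 in MPTN24 against the same WT libraries). This count and median include ligands, among them IFNL1, IFNL2 and IFNL3, and receptors and sensors were not counted alone. ZBP1, a sensor of Z-form nucleic acid, had 0 WT counts and was at least 9.19-fold higher at a mean of only 0.494 CPM. The adaptor STING1 (log2 change 0.60 ± 0.12, approximate SE) and the DNA sensor AIM2 (0.70 ± 0.16) rose. The receptor chain IFNAR1 fell (-0.47 ± 0.12), the partner chain IL10RB of the type III receptor rose (0.43 ± 0.09), and CGAS (-0.26 ± 0.12), MAVS (0.21 ± 0.16) and TBK1 (-0.33 ± 0.17) did not pass. 

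Interferon-stimulated genes had the largest median change of the 39 lists examined. Of 65 tested, 52 rose (80%) and 1 fell (1.54%), against 18.3% and 18.1% of all genes. In every leave-one-out fit 50 of the rises held. Their median log2 change was 1.21, against 0.17 in MPTN24 relative to the same WT libraries. In MPTN24 20 rose and 1 fell, where 11.1% of all genes rose and 12.1% fell. Tested directly against MPTN24, 56 of the 65 were higher in MPTN, where 7.85% of all genes were, and 1 was lower. CXCL10 (ENSG00000169245, chr4:76021118-76023497), a chemokine that attracts activated T cells, was at 0, 0.0722 and 0 CPM in WT and at 16.9, 18.9 and 19.9 CPM in MPTN. Its WT value rested on about 1 read pair, and the ratio of 825 had a 95% counting interval of 185 to 40800 (edgeR adjusted p = 1.5e-08).

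CCL5 (ENSG00000271503, chr17:35871491-35880793), another T cell chemokine, read 0.476, 0.303 and 0.159 CPM in WT and 58.9, 66.6 and 64.1 CPM in MPTN. The groups were far apart, and MPTN24 lay between them at 1.07 ± 0.395 CPM (SD, n = 3). The log2 change of CCL5 was 7.71 ± 0.30 (edgeR adjusted p = 1.1e-08). OASL (ENSG00000135114, chr12:121019111-121039242), which stimulates the RNA sensor RIG-I, read 1.41, 1.37 and 1.21 CPM in WT and 115, 116 and 134 CPM in MPTN. No WT library came near an MPTN library, and the log2 change was 6.52 ± 0.17 (edgeR adjusted p = 2.2e-11). IFI44L (chr1:78619922-78646145) went from 0.0793, 0.202 and 0.238 CPM to 17.7, 17.6 and 17 CPM (log2 change 6.60 ± 0.43).

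IFIT1, ISG15 and MX2, antiviral genes already expressed in WT, rose as well. IFIT1 (ENSG00000185745, chr10:89392546-89406487), which binds viral RNA ends, was at 4.54, 7.58 and 7.23 CPM in WT and at 91.8, 103 and 126 CPM in MPTN (log2 change 4.05 ± 0.19, edgeR adjusted p = 1.1e-08). ISG15, a ubiquitin-like modifier, was at 41.8, 49.6 and 53.8 CPM in WT and at 249, 255 and 344 CPM in MPTN (log2 change 2.55 ± 0.14). The dynamin-like GTPase gene MX2 rose from 1.25 ± 0.372 to 22.3 ± 2.11 CPM (log2 change 4.17 ± 0.22). The chemokine gene CXCL11, near the floor in WT, rose from 0.0707 ± 0.0614 to 6.23 ± 0.848 CPM. In each of these genes every MPTN library exceeded every WT library, as in 24.8% of all tested genes. RSAD2, the radical enzyme viperin, had 0 WT counts and was at least 80.5-fold higher.

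The transcription factor genes IRF9 and STAT2 rose, while some effectors did not pass. IRF9 read 3.47, 2.14 and 2.7 CPM in WT against 14.9, 9.36 and 15.9 CPM in MPTN (log2 change 2.27 ± 0.24), and STAT2 read 42.2, 36.7 and 35.7 against 93, 99.7 and 88.6 CPM (1.30 ± 0.10). Both groups were apart in both genes, and both were already higher in MPTN24, at log2 changes of 1.22 and 0.87. The editing enzyme ADAR (-0.18 ± 0.11) and the kinase EIF2AK2 (-0.11 ± 0.12) were among the 12 members without a call. LAP3, an aminopeptidase, was the 1 fall (-0.36 ± 0.13, edgeR adjusted p = 0.039), and it was called in only 2 of the 6 leave-one-out fits. ADAR, EIF2AK2 and LAP3 were chosen after their values were seen.

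**Figure D2:**
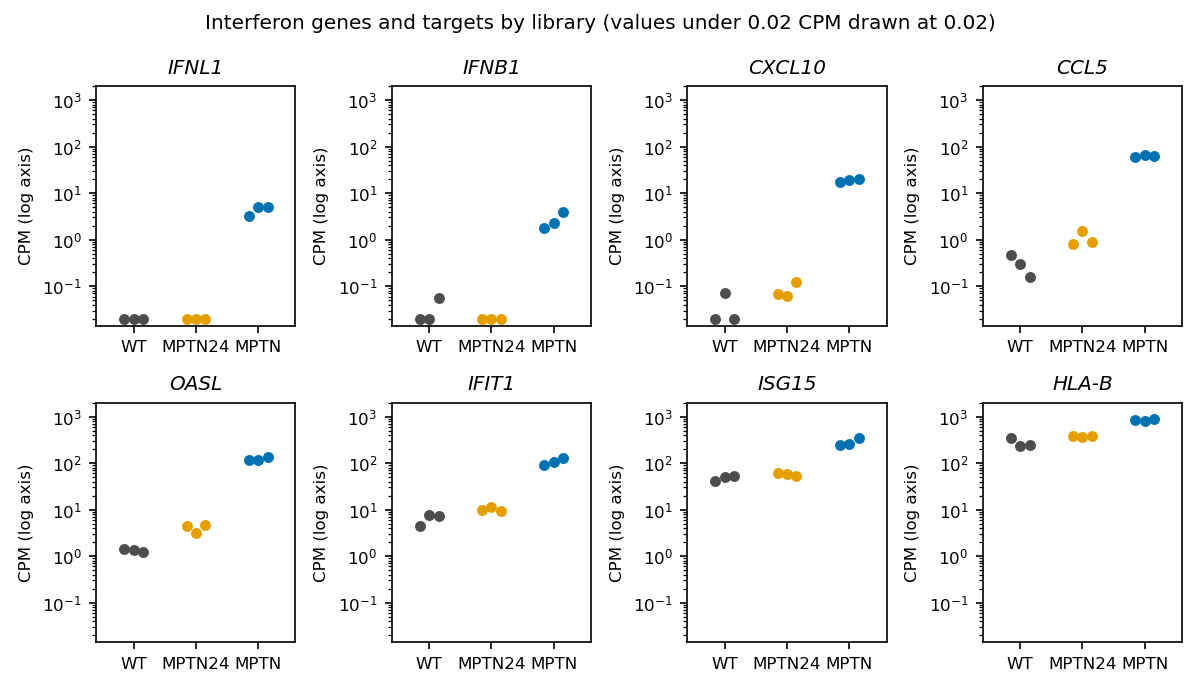
CPM (log axis, the same range in every panel) of 8 interferon-related genes in each WT, MPTN24 and MPTN library, 1 point per library, with values under 0.02 CPM drawn at 0.02. In every panel the 3 MPTN points lie above the 6 others, and the distance narrows from IFNL1 and CXCL10, near the floor in WT, to HLA-B, at 228 to 339 CPM in WT.

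Genes of antigen presentation rose as a group: 14 of 25 tested rose (56%) and 0 fell, against 18.3% and 18.1% of all genes. Their median log2 change was 0.48. HLA-B (ENSG00000234745, chr6:31269491-31357188), a class I heavy chain, was at 339, 228 and 250 CPM in WT and at 836, 813 and 875 CPM in MPTN. The groups did not overlap, the log2 change was 1.63 ± 0.13 (edgeR adjusted p = 1.2e-06), and MPTN also exceeded MPTN24 in the direct test (1.17 ± 0.13, edgeR adjusted p = 5.5e-05). HLA-F rose by 1.48 ± 0.10 and the class II chain HLA-DRB1 by 1.86 ± 0.17 on the log2 scale, from 4.2 to 15.2 CPM. HLA genes are alike in sequence and variable between people, so counts of single HLA genes are uncertain. B2M, the shared light chain, which has no such copy, rose from 422 ± 12.7 to 869 ± 52.9 CPM (1.04 ± 0.09) and stood at 423 ± 24.7 CPM in MPTN24. The peptide transporter TAP1 rose (0.56 ± 0.14), while TAP2 (-0.35 ± 0.14) and the class I regulator NLRC5 (0.24 ± 0.12) did not pass.

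Ligands of immune checkpoints rose in 7 of 11 tested genes (63.6%) and 0 fell, against 18.3% and 18.1% of all genes. CD274, which encodes PD-L1, was at 14.3, 8.36 and 7.31 CPM in WT and at 18.3, 16.8 and 14.9 CPM in MPTN. WT 1 stood close to the lowest MPTN library, and the log2 change was 0.74 ± 0.20 (edgeR adjusted p = 0.0099). PDCD1LG2, the PD-L2 gene, rose by 1.07 ± 0.19, TNFRSF14 by 1.34 ± 0.18 and CEACAM1 by 2.16 ± 0.39, the last from only 0.666 CPM. IDO1, a classical interferon gamma target, had a log2 change of 1.83 ± 1.35 and did not pass.

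Cytokines and NF-kB feedback genes were mixed. Among 42 tested, 18 rose (42.9%) and 7 fell (16.7%), against 18.3% and 18.1% of all genes. Of these, 12 rises and 4 falls held in every leave-one-out fit. The rises became 27 without WT 1, and 13 without each other WT or MPTN library or with only WT and MPTN fitted. After CCL5, the largest of the rises that held were CFB, complement factor B (log2 change 3.56 ± 0.17, from 15.6 to 183 CPM), and LCN2, an iron-scavenging protein (2.66 ± 0.21). IL24 fell from 88.9 to 37.3 CPM (-1.25 ± 0.09), and the NF-kB subunit gene REL fell from 12.7 to 5.36 CPM (-1.24 ± 0.24). TNF, at 39.9 and 40.6 CPM, and IL1B (-0.11 ± 0.12) did not pass.

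Genes of mitosis and DNA replication fell almost throughout. Of 39 tested mitosis genes 0 rose and 34 fell (87.2%), against 18.3% and 18.1% of all genes. Their median log2 change was -0.84, and all 34 falls held in every leave-one-out fit. Of 41 tested replication genes 0 rose and 37 fell (90.2%), with a median of -0.64, and 34 held. In MPTN24 against the same WT libraries the medians were -0.32 for both lists. In the direct test against MPTN24, where 6.7% of all genes were lower, 31 mitosis genes and 23 replication genes were lower in MPTN. In bulk RNA, fewer cycling cells and less RNA per cycling cell cannot be told apart.

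MKI67 (ENSG00000148773, chr10:128096659-128126423), which coats mitotic chromosomes, was at 387, 324 and 230 CPM in WT and at 125, 108 and 76.9 CPM in MPTN. The spread inside each group was wide, but every MPTN library was below every WT library (log2 change -1.60 ± 0.20, edgeR adjusted p = 0.00014). The spindle motor gene KIF11 (ENSG00000138160, chr10:92593130-92655395) went from 107, 134 and 116 CPM to 42.2, 44.4 and 40.4 CPM (-1.49 ± 0.12, edgeR adjusted p = 1.6e-06). MCM10, which starts the replication fork, went from 50.7, 46.9 and 47.1 CPM to 17.1, 16.6 and 13.2 CPM (-1.63 ± 0.12). RRM2, a subunit of ribonucleotide reductase, went from 344, 246 and 253 CPM to 111, 111 and 104 CPM (-1.38 ± 0.12). In all 4 genes the groups were clearly apart, and MPTN24 lay between them. Falls were smaller for UBE2C (-0.47 ± 0.12), which marks mitotic proteins for destruction, and MCM5 (-0.40 ± 0.10), a subunit of the replicative helicase.

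Regulators of entry into the cell cycle were divided. Of 15 tested G1 genes 4 rose and 4 fell (26.7% each, against 18.3% and 18.1% of all genes). CDKN1A (ENSG00000124762, chr6:36676460-36687337) was at 133, 171 and 184 CPM in WT and at 340, 361 and 407 CPM in MPTN, with no overlap (log2 change 1.18 ± 0.12, edgeR adjusted p = 1.1e-05). CDKN2B (0.76 ± 0.19) and CDKN2A (0.55 ± 0.12), which inhibit CDK4 and CDK6, rose. CDK6 fell (-1.0 ± 0.16), as did RBL1 (-1.07 ± 0.15), a relative of the retinoblastoma protein. Of 23 tested p53 pathway genes 8 rose (34.8%) and 2 fell (8.7%). They included GDF15, a secreted stress factor that went from 1.08, 1.93 and 2.99 CPM to 18.3, 13.1 and 19.3 CPM (3.06 ± 0.29), and BBC3, the killer protein PUMA (1.78 ± 0.17). TIGAR fell (-0.49 ± 0.12). Of 16 tested BCL2 family genes 6 rose (37.5%) and 1 fell (6.25%), and the rises included both BBC3 and the protective BCL2L1 (0.72 ± 0.09).

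**Figure D3:**
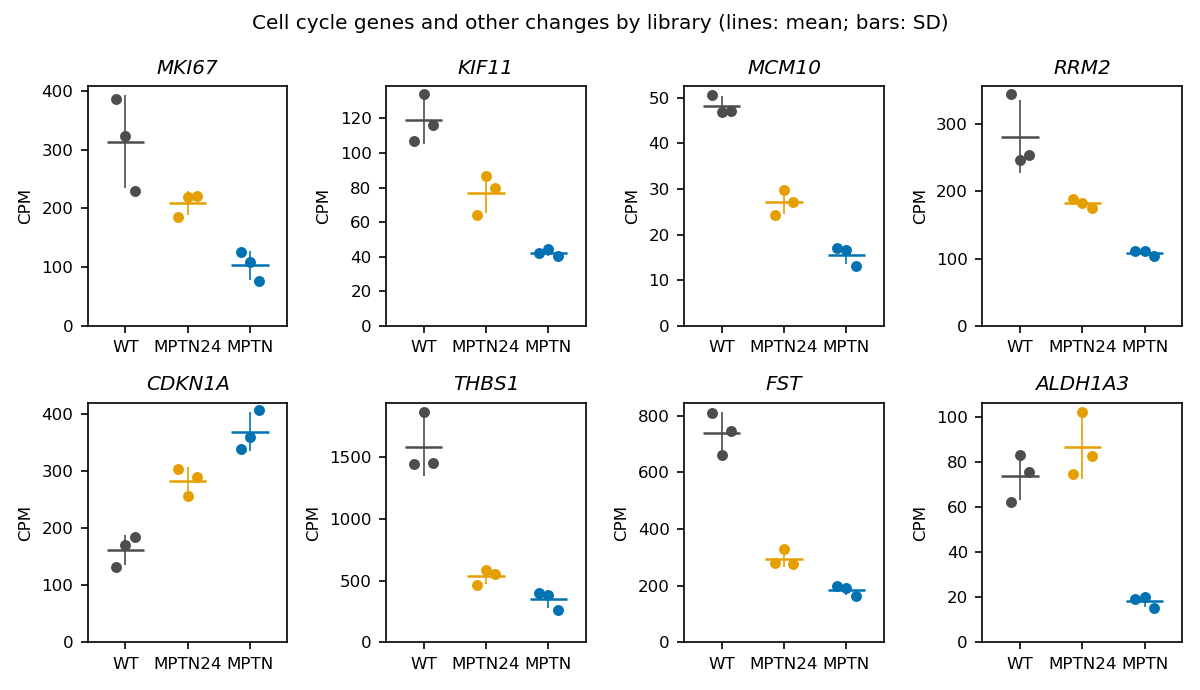
CPM of 8 genes in each WT, MPTN24 and MPTN library; points are libraries, horizontal lines group means and bars the SD of 3 libraries, and each axis starts at 0. The means of MKI67, KIF11, MCM10 and RRM2 step down from WT through MPTN24 to MPTN and that of CDKN1A steps up, while ALDH1A3 is at 86.4 CPM in MPTN24, against 73.5 in WT and 18.2 in MPTN.

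The largest rises at 5 CPM or more also included genes outside the list of interferon-stimulated genes. ABCG1 (ENSG00000160179, chr21:42199689-42297244), a sterol exporter, was at 1.41, 6.96 and 5.11 CPM in WT and at 93.1, 97.4 and 93.8 CPM in MPTN. The MPTN libraries were tightly grouped and far above WT, in which WT 1 was lowest (log2 change 4.39 ± 0.50, edgeR adjusted p = 0.00061). CUX2, a homeobox gene of cortical neurons, went from 0.159, 0 and 0.306 CPM to 9.46, 7.65 and 5.22 CPM (5.51 ± 0.71). The neural adhesion gene NCAM1 went from 0.127, 0.39 and 0.261 CPM to 7.15, 5.73 and 4.87 CPM (4.49 ± 0.35). Neither CUX2 nor NCAM1 was called in MPTN24, where they stood at 0.326 ± 0.103 and 0.513 ± 0.0492 CPM. Further rises, named after the values were seen, were in the receptor TLR4, from 0.998 ± 0.291 to 15.7 ± 1.44 CPM, and in ALOX5AP, a helper of leukotriene synthesis, from 2.25 ± 0.824 to 33.6 ± 2.62 CPM.

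Among the 10 largest falls at 5 CPM or more were the secreted proteins THBS1, FST and NRG1. THBS1 (ENSG00000137801, chr15:39581079-39599466), a matrix protein that restrains vessel growth, was at 1440, 1860 and 1450 CPM in WT and at 396, 385 and 265 CPM in MPTN. No library of one group reached the other, and the log2 change was -2.18 ± 0.16 (edgeR adjusted p = 6e-07). FST, follistatin, which traps activins, went from 811, 663 and 747 CPM to 200, 193 and 165 CPM (-1.99 ± 0.12). NRG1, a ligand of ERBB3 and ERBB4, went from 237, 312 and 362 CPM to 82, 83.5 and 72.6 CPM (-1.93 ± 0.14). All 3 were intermediate in MPTN24, at 536 ± 62.9, 295 ± 30.3 and 118 ± 7.87 CPM.

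ALDH1A3, HCLS1 and AQP3 were not lower at 24 h. ALDH1A3 (ENSG00000184254, chr15:100877714-100916626), an enzyme of retinoic acid synthesis, was at 62.4, 82.9 and 75.4 CPM in WT and at 19.1, 20.2 and 15.3 CPM in MPTN, while MPTN24 averaged 86.4 ± 14.1 CPM. The fall held against both groups (log2 change -2.02 ± 0.15 against WT and -2.25 ± 0.15 against MPTN24). HCLS1, a cortactin relative, went from 29.6, 28.7 and 29.3 CPM to 6.53, 7.97 and 7.07 CPM, with MPTN24 at 28.2 ± 0.581 CPM (-2.02 ± 0.11 and -1.97 ± 0.11). AQP3, a water and glycerol channel, was at 140, 292 and 307 CPM in WT and at 66.2, 71.1 and 77.3 CPM in MPTN, below a mean of 456 ± 16.6 CPM in MPTN24. The remaining large falls, in TGFB2, ALPP, KRT9 and RIMS2, were in genes at under 10 mean CPM in WT, where WT 1 was lowest each time, at 2.97, 3.68, 2.36 and 5.09 CPM. Unlike the previous genes, these 4 were already lower in MPTN24 than in WT, with log2 changes of -1.23, -2.51, -1.32 and -1.34. SYN1, a synaptic vesicle gene chosen after its values were seen, was at 1.86, 1.13 and 1.63 CPM in WT and at 0 in all MPTN libraries.

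**Figure D4:**
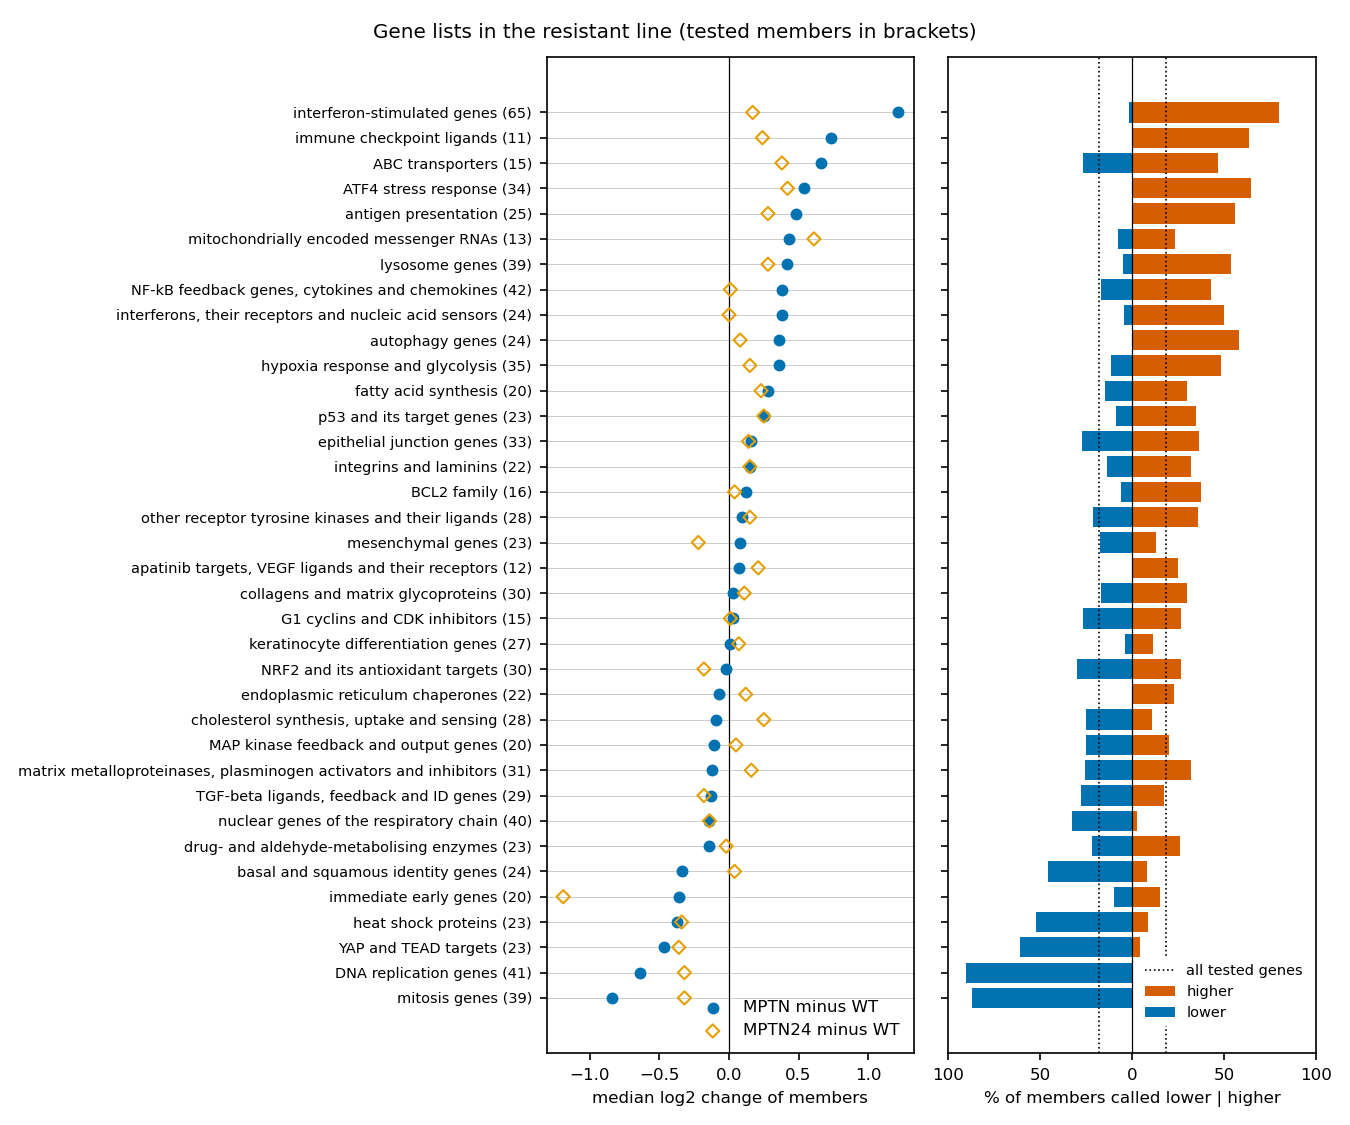
Left, median log2 change of the tested members of 36 gene lists, with MPTN minus WT as filled circles and MPTN24 minus WT as open diamonds (both share the WT libraries); right, percent of members called lower (blue, to the left) and higher (orange, to the right), with dotted lines at the 18.1% and 18.3% of all tested genes. Interferon-stimulated genes lie at the top at a median of 1.21 and mitosis genes at the bottom at -0.84.

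Stress responses of amino acid supply and of recycling were higher in the resistant line. Of 34 tested ATF4 response genes 22 rose (64.7%) and 0 fell, against 18.3% and 18.1% of all genes. Their median log2 change was 0.54 (0.42 in MPTN24). ADM2, a peptide hormone, went from 1.59, 2.06 and 2.38 CPM to 15.3, 18.9 and 20.3 CPM (3.17 ± 0.20), and CHAC1, which degrades glutathione, from 8.98, 7.76 and 8 CPM to 32, 36.7 and 43.1 CPM (2.18 ± 0.13). Both genes rose further than in MPTN24, by 1.39 ± 0.18 and 0.85 ± 0.13 in the direct test. VLDLR, a lipoprotein receptor, rose by 2.67 ± 0.21. The chaperones of the endoplasmic reticulum moved less, with 5 of 22 up (22.7%, against 18.3% of all genes) and 0 down (9 up without WT 1). Their largest rises that held were in DNAJB9 (0.82 ± 0.12) and XBP1 (0.60 ± 0.10).

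Lysosomal and autophagy genes rose far more often than they fell. Of 39 tested lysosomal genes 21 rose (53.8%) and 2 fell (5.13%), against 18.3% and 18.1% of all genes. The rises were led by the sulfatase ARSA (log2 change 1.64 ± 0.13), the glucosidase GAA (1.21 ± 0.12) and the protease CTSB (1.00 ± 0.11). GLA, a galactosidase, fell (-0.52 ± 0.12). Of 24 tested autophagy genes 14 rose (58.3%, or 9 genes when only WT and MPTN were fitted) and 0 fell. WIPI1, which helps build the autophagosome, rose by 1.30 ± 0.12, the mitophagy receptor BNIP3 by 1.2 ± 0.13 and the initiating kinase ULK1 by 1.05 ± 0.10.

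Heat shock proteins went the other way: 12 of 23 fell (52.2%) and 2 rose (8.7%), against 18.1% and 18.3% of all genes. Their median log2 change was -0.37. HSP90AA1, the inducible cytosolic HSP90, went from 2480, 2270 and 2250 CPM to 1120, 1050 and 1190 CPM (-1.06 ± 0.10). These values did not overlap between the groups. The mitochondrial chaperonin HSPD1 (-0.96 ± 0.11) and HSPA4 (-0.82 ± 0.11) fell, while the small heat shock protein gene HSPB8 rose from 3.12 to 12.8 CPM (2.03 ± 0.29).

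Hypoxia-response and glycolysis genes gave 17 rises (48.6%) and 4 falls (11.4%) among 35, against 18.3% and 18.1% of all genes. Their median log2 change was 0.36. The glucose transporter SLC2A3 rose from 4.43 to 19.6 CPM (2.14 ± 0.23), the carbonic anhydrase CA9 from 2.69 to 9.28 CPM (1.78 ± 0.20) and LOX, a collagen cross-linker, from 3.55 to 11.5 CPM (1.69 ± 0.19). ADM, adrenomedullin, which is also induced by low oxygen, fell (-0.88 ± 0.10), as did HIF1A itself (-0.71 ± 0.16). Among 40 nuclear genes of the respiratory chain 1 rose (2.5%) and 13 fell (32.5%), with a median of -0.14. With offsets for GC content and length 21 fell. The named changes were falls in COX6C (-0.68 ± 0.11), ATP5F1A (-0.67 ± 0.09) and NDUFA9 (-0.53 ± 0.11) and a rise in COX5B (0.49 ± 0.12). The 1 rise became 4 without MPTN 1 and 2 without MPTN 2. Of 13 mitochondrially encoded messengers 3 rose (23.1%, against 18.3% of all genes) and 1 fell. Without WT 1 9 of them rose, and 1 rose without WT 3, MPTN 2 or MPTN 3.

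Of 28 tested cholesterol synthesis and uptake genes 3 rose and 7 fell (25%, against 18.1% of all genes), and this count rested on single libraries. It went to 13 falls without WT 1, 3 without WT 2, WT 3 or MPTN 3, and 4 without MPTN 1 or MPTN 2, and the rises went to 1 without MPTN 3. TMEM97 (log2 change -1.15 ± 0.10), ACAT2 (-1.01 ± 0.14) and SQLE (-0.88 ± 0.18) fell in every leave-one-out fit, and INSIG2, which retains the sterol sensor, rose (0.66 ± 0.16). Of 20 fatty acid synthesis genes 6 rose (30%, against 18.3% of all genes) and 3 fell (5 falls without WT 1). SREBF1, which drives lipogenesis, rose from 182 to 446 CPM (1.29 ± 0.29), the acetyl-CoA synthetase ACSS2 by 1.11 ± 0.20, and ACLY, which makes cytosolic acetyl-CoA, fell (-0.63 ± 0.14).

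Of 15 tested ABC transporters 7 rose (46.7%) and 4 fell (26.7%), against 18.3% and 18.1% of all genes. ABCA1, the partner of ABCG1 in sterol export, was at 13.2, 29.3 and 22.8 CPM in WT and at 103, 103 and 75.8 CPM in MPTN, without overlap (log2 change 2.11 ± 0.25, edgeR adjusted p = 0.00016). The drug exporter ABCG2 was at 29, 31.7 and 33.3 CPM in WT and at 20.3, 23 and 20.5 CPM in MPTN, a fall (-0.56 ± 0.10, edgeR adjusted p = 0.00095). ABCC2 (-1.02 ± 0.22) and ABCC4 (-0.67 ± 0.12), which export conjugates and nucleotides, fell too. ABCB1, the classical multidrug exporter, was not tested, with 9 counts in MPTN 1 and 0 in the other MPTN and all WT libraries.

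Drug- and aldehyde-metabolising enzymes gave 6 rises (26.1%) and 5 falls (21.7%) among 23, against 18.3% and 18.1% of all genes. There were 3 rises without MPTN 3 and 10 falls without WT 1. CYP1A1, a target of the aryl hydrocarbon receptor, went from 2.44, 3.31 and 4.32 CPM to 0.334, 0.535 and 0.528 CPM (-2.84 ± 0.29). All MPTN values were below all WT values, and MPTN24 stayed at 3.3 ± 0.228 CPM. ALDH3B1, which oxidises fatty aldehydes, rose (1.21 ± 0.16). Of 30 NRF2 antioxidant genes 8 rose (26.7%) and 9 fell (30%), against 18.3% and 18.1% of all genes. The rises became 5 without MPTN 3 or with only WT and MPTN fitted, and the falls 5 without WT 2 or WT 3. The iron store FTH1 rose from 1780 ± 128 to 3420 ± 237 CPM (0.94 ± 0.10), and the factor's own gene NFE2L2 fell (-0.60 ± 0.16).

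Of the stated targets of apatinib, KDR was not detected at this depth, and KIT and RET were expressed at low levels. KDR had 0 counts in all 9 libraries, which at 3 read pairs over the 9 allows up to 0.0182 CPM, for counting error only. FLT1, another VEGF receptor, had 4 counts in WT 2 and 0 elsewhere. KIT was at 0.365, 0.534 and 0.227 CPM in WT and 0.147, 0.293 and 0.122 CPM in MPTN (log2 change -1.0 ± 0.96, edgeR adjusted p = 0.46), and RET was at 3.71, 3.25 and 4.01 CPM against 4.09, 4.66 and 3.62 CPM (0.17 ± 0.19, edgeR adjusted p = 0.52). The groups overlapped in both. Of 12 tested targets, ligands and co-receptors 3 rose (25%, against 18.3% of all genes) and 0 fell, all 3 being ligands. VEGFA was at 90.8, 78.7 and 79.5 CPM in WT and at 169, 175 and 140 CPM in MPTN, apart from each other (0.96 ± 0.11, edgeR adjusted p = 1.5e-05), and PGF (0.95 ± 0.25) and VEGFB (0.74 ± 0.13) rose with it.

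Other receptor kinases and their ligands gave 10 rises (35.7%) and 6 falls (21.4%) among 28, against 18.3% and 18.1% of all genes. EGFR was at 1040, 1100 and 853 CPM in WT and at 1190, 1150 and 855 CPM in MPTN, overlapping groups with no call (log2 change 0.10 ± 0.13, edgeR adjusted p = 0.61). MET did not pass either (-0.26 ± 0.11, edgeR adjusted p = 0.08), except without WT 3. AXL, the GAS6 receptor, fell from 675, 510 and 510 CPM to 404, 424 and 396 CPM (-0.47 ± 0.12, edgeR adjusted p = 0.006). The EGFR ligand gene BTC rose from 0.432 to 3.04 CPM (2.82 ± 0.37), FGFR1 from 1.24 to 4.82 CPM (1.96 ± 0.29) and MERTK from 0.419 to 1.26 CPM (1.58 ± 0.40).

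Of 20 MAP kinase output genes 4 rose (20%) and 5 fell (25%), against 18.3% and 18.1% of all genes. EMP1 (-1.01 ± 0.23), MYC (-0.86 ± 0.11) and the phosphatase gene DUSP5 (-0.85 ± 0.15) fell, and the transcription factor gene ETV1 rose (1.46 ± 0.18). Of 20 immediate early genes 3 rose (15%) and 2 fell (10%), both under the shares of all genes. Without WT 1 the falls became 12, against 0 or 1 without any other library. FOS, the AP-1 subunit, was at 73.4, 718 and 693 CPM in WT and at 256, 260 and 204 CPM in MPTN (log2 change -1.04 ± 0.75, edgeR adjusted p = 0.34). WT 1 was below all MPTN libraries and WT 2 and WT 3 above them. JUN rose by 0.52 ± 0.10 on the log2 scale.

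Targets of YAP and TEAD, the outputs of the Hippo pathway, fell in 14 of 23 cases (60.9%) and rose in 1 (4.35%). Their median log2 change was -0.47, and 3 rose without WT 1 and 2 without MPTN 1. TGFB2 (-2.09 ± 0.33), CCN1 (-0.90 ± 0.09), a matricellular protein, and the membrane repair gene MYOF (-0.88 ± 0.14) fell, and GADD45B rose (0.60 ± 0.15). Of 29 TGF-beta ligands and feedback genes 5 rose (17.2%) and 8 fell (27.6%), against 18.3% and 18.1% of all genes. FST, described above, and TGFB2 fell most, while LTBP1, which stores the ligand in the matrix, rose from 5.08 to 21.8 CPM (2.10 ± 0.20).

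Genes of the matrix and its receptors are read against the 18.3% of all tested genes that rose and the 18.1% that fell. Of 30 collagens and matrix glycoproteins 9 rose (30%) and 5 fell (16.7%). COL6A2, a chain of collagen VI, rose from 8.09, 6.73 and 6.65 CPM to 52.4, 56.1 and 63.8 CPM (3.01 ± 0.13), and its partner COL6A1 rose by 1.69 ± 0.12 and the proteoglycan HSPG2 by 1.35 ± 0.13. Fibronectin, FN1, was at 125, 231 and 181 CPM in WT and at 68.7, 73.9 and 52.1 CPM in MPTN (-1.46 ± 0.19, edgeR adjusted p = 0.00016). The COL6A2 groups and the FN1 groups were each fully apart, in opposite directions. Of 22 integrins and laminins 7 rose (31.8%) and 3 fell (13.6%), with LAMB2 (1.11 ± 0.11) and the fibronectin receptor chain ITGA5 (1.05 ± 0.19) among the rises and LAMC1 (-0.73 ± 0.13) among the falls.

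Of 31 proteases and inhibitors of the matrix 10 rose (32.3%) and 8 fell (25.8%), against 18.3% and 18.1% of all genes. The falls became 5 without MPTN 2 or MPTN 3. MMP28 (1.52 ± 0.29), MMP15 (0.97 ± 0.13) and the urokinase receptor gene PLAUR (0.90 ± 0.20) rose, and ADAMTS1 fell (-1.41 ± 0.13). The collagenase MMP1 was at 3590, 923 and 974 CPM in WT and at 923, 982 and 1090 CPM in MPTN, overlapping apart from WT 1, and did not pass (-0.88 ± 0.53, edgeR adjusted p = 0.26).

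Epithelial and mesenchymal genes did not move as opposed blocks. Of 33 epithelial junction genes 12 rose (36.4%) and 9 fell (27.3%), against 18.3% and 18.1% of all genes. The tight junction genes CLDN4 (1.56 ± 0.11), TJP3 (1.46 ± 0.34) and CLDN7 (0.96 ± 0.10) rose and the adhesion molecule EPCAM fell (-1.01 ± 0.10). CDH1, E-cadherin, was at 121, 139 and 121 CPM in WT and at 159, 155 and 120 CPM in MPTN, with overlap (0.19 ± 0.11, edgeR adjusted p = 0.21). Of 23 mesenchymal genes 3 rose (13%) and 4 fell (17.4%), both under the shares of all genes (2 falls without MPTN 3). Vimentin, VIM, rose from 721, 541 and 558 CPM to 1120, 1100 and 988 CPM (0.82 ± 0.11, edgeR adjusted p = 9.8e-05), without overlap, while FN1 fell. Of 24 basal and squamous identity genes 2 rose (8.33%) and 11 fell (45.8%), with a median of -0.34. The falls became 7 without WT 2 or WT 3 and the rises 4 without WT 1. The 11 falls include KRT8 (-0.68 ± 0.11), which is itself no marker of basal or squamous identity. The Notch ligand JAG2 (-0.66 ± 0.08) and ITGA6 (-0.61 ± 0.12) fell and PITX1 rose (0.62 ± 0.13). Of 27 keratinocyte differentiation genes 3 rose (11.1%) and 1 fell (3.7%), both under the shares of all genes. The rises became 1 without WT 2, MPTN 2 or MPTN 3, and the falls 5 without WT 1. KRT6B rose (2.03 ± 0.17), and since KRT6A and KRT6C are nearly identical to it, its counts are uncertain.

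Markers of other cell types were low in both groups. The 10 epithelial markers summed to 14700 to 19800 CPM in WT and 13400 to 14500 CPM in MPTN, as in a squamous carcinoma (marker sums are without TMM scaling). Of 10 leukocyte markers 8, among them PTPRC and CD3E, had 0 counts in every WT and MPTN library, and the 10 summed to between 0 and 0.212 CPM. The 6 endothelial markers summed to 2.24 to 3.24 CPM over both groups, CLDN5 being at 0, and the 7 fibroblast markers to 10.4 to 19.3 CPM in WT and 11.7 to 12.4 CPM in MPTN, mostly COL1A1. A separate list of genes enriched in leukocytes gave 2 rises and 2 falls among 7 (28.6% each, against 18.3% and 18.1% of all genes). The actin bundler LCP1 rose from 16.7 ± 2.59 to 93.6 ± 4.9 CPM (log2 change 2.49 ± 0.12) and CORO1A fell (-1.15 ± 0.13). Of 6 endothelial and 6 fibroblast genes tested, 0 were called by edgeR or DESeq2 and 0 had an unadjusted p under 0.05, though 1 of each list fell with GC content and length offsets, and 1 fibroblast gene fell without WT 1.

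Features of the libraries moved with some of these results. Total counts were 65227021 to 88923424 in WT and 70969935 to 98890929 in MPTN, and mitochondrial transcripts took 2.72% to 4.74% and 4.66% to 5.13%. WT 1 stood apart from the other WT libraries: SCD, a desaturase, had 229, 1650 and 1430 CPM in the WT libraries in order and 1960, 1980 and 1640 CPM in MPTN, and did not pass. The change also followed base composition. Among the 4202 genes with the highest GC content (median 60.7%), 30.3% rose and 7.57% fell, and among the 4203 with the lowest (39.5%), 11.8% rose and 27.7% fell. With offsets for GC content and length the interferon-stimulated genes gave 59 rises and 1 fall, and the part of GC content in the other results was not tested beyond such offsets. By gene class, 11.6% of 2490 long noncoding RNAs rose and 2.97% fell, against 20.3% and 21.9% of 13476 protein-coding genes.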

How the data were processed

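RNA of 9 HSC-3 libraries was measured by messenger RNA sequencing. Per the labels' protocols, Trizol RNA (1 µg) went into an unstranded Illumina TruSeq kit, so reads of overlapping genes on opposite strands were not separable. The build was GRCh38 and the tools were HISAT2, StringTie, edgeR, Trimmomatic, FastQC and CASAVA 1.8, per the submitters' processing notes. Settings, tool order and annotation release are not given in the sources used here.

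The authors deposited estimated counts for 60612 genes as whole numbers, which were used as deposited, and values taken as FPKM, a unit inferred from the numbers and used only with limma. Counts of 4 (6716 values) outnumbered 3 (4548) and 5 (3190), so 1 read pair was taken as 4 counts. Counts of 1 (8706 values) and 2 (4811) were also frequent and are less than 1 pair on this reading. A group at 0 was set to 3 read pairs, or 12 counts, for a lower bound, and ratios resting on 1 to 3 read pairs have exact binomial 95% intervals. Both cover counting error only. For these bounds the counts of a group were pooled, so 4 counts per pair is an assumption.

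The filter was edgeR's filterByExpr with a minimum count of 10 and a total of 15. TMM-scaled counts of all 9 libraries were fitted with edgeR 4.0.16 (quasi-likelihood, robust, no replicate block; R 4.3.3), and p-values were adjusted by Benjamini-Hochberg over 16990 genes at 0.05. CPM are TMM-scaled, except the sums of cell type markers, which are CPM without that scaling. The ± of a log2 change is an approximate standard error, the absolute change divided by the square root of its quasi-likelihood F statistic. CPM have the SD of 3 libraries. MPTN24 shares the WT libraries with MPTN, so values of both against WT are given side by side only, and MPTN against MPTN24 was tested in the same fit.

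The 39 gene lists and the genes named were chosen with earlier results of these data known. Named were the 10 largest rises and falls whose higher group averaged 5 CPM or more and whose call held in 6 leave-one-out fits. From each list came up to 3 such members in the direction with more calls and 1 in the other, at 1 CPM or more, and then KDR, KIT, RET, FLT1, VEGFA, EGFR, AXL, MET, ABCB1, ABCG2, MKI67, CDH1, VIM, CD274, FOS, MMP1 and SCD. Other list members, and genes said to be so, were chosen after their values were seen.

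Alternatives were RLE and upper-quartile scaling, no filter, 1 CPM in 3 libraries, a replicate block, only WT and MPTN fitted, DESeq2 1.42.0, log2 FPKM (pseudocount 0.1 or 1) in limma 3.58.1, counts divided by 4 and each library left out. Added after seeing the data were GC content and length offsets (GENCODE 29, 98.9% of tested genes) and leaving out WT 1 while fitting only WT and MPTN. Tested on simulated data for MPTN against WT, 68% of 200 genes changed 2-fold were recovered with 9 false calls among 16545 genes, and 36.5% of 200 changed 1.5-fold with 7 among 16526.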

Additional observations from a re-analysis of the deposited data

How the results depend on the processing

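The counts of 3116 rises and 3071 falls came to 2468 to 3251 and 2441 to 3307 when each library was left out, and those at 2-fold or more to 907 to 1126 and 302 to 486. With limma on log2 of FPKM plus 0.1, 1867 genes fell and 255 fell 2-fold or more; with FPKM plus 1, 1881 fell, 389 rose 2-fold or more and 75 fell 2-fold or more. A larger pseudocount draws low genes toward 0; the cause of the other differences was not tested. Rises were 50.4% of the calls, 58.3% with upper-quartile scaling, and 66.4% and 66.3% with limma. No call changed sign except 9 and 8 with the limma settings and 23 with GC content and length offsets.

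Of the named genes, GADD45B, IER2, JUNB, PITX1 and SREBF1 lost their call with GC content and length offsets, and ACACB, ATP5F1A, GLA, TIGAR and TPM1 with limma. CDH1 gained one without MPTN 3 or with the offsets, FOS without WT 1 and MET without WT 3. With a replicate block 3157 genes rose and 3026 fell, 1046 and 376 of them 2-fold or more. Correlations of same-numbered WT and MPTN deviations were -0.007, 0.018 and 0.07, and those of other pairs ran from -0.061 to 0.036. Such weak values cannot decide whether same-numbered libraries were handled together, and the labels do not say. Where 0 members of a list were called in 1 direction, 0 had an unadjusted p under 0.05 in it, except 1 fall each in antigen presentation, endoplasmic reticulum chaperones and autophagy; DESeq2 called 1 fall in antigen presentation. Below a mean of about 1 CPM depth limits the values.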
